A study of Mus musculus with 6 samples.

Results

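Ccl3-rich neutrophils of mouse skin wounds were 3264 of the 4484 neutrophils and of the 11032 cells kept from 3 wound libraries, in a series of 6 libraries with 41068 cell barcodes. A wound cell was kept with at least 300 genes, under 100000 unique molecular identifiers (UMIs, which count captured RNA molecules) and under 10% mitochondrial UMIs. A kept cell was taken as a neutrophil when S100a8 and S100a9 together held at least 1% of its UMIs and when at least 2 of the 7 genes Csf3r, Retnlg, Cxcr2, G0s2, Hdc, Il1r2 and Mmp9 had a UMI. The Ccl3-rich cells were then chosen by at least 3 Ccl3 UMIs. They were set beside the 644 neutrophils with 0 Ccl3 UMIs (Ccl3-0 cells), and 576 neutrophils with 1 or 2 lay between. Because the cells were selected on their own Ccl3 counts, every difference between Ccl3-rich and Ccl3-0 cells is given as a description, with no test.

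The study asked how dendritic cells (DCs) lacking Ndrg2, delivered on a hydrogel, affect skin wound healing. Excisional wounds of 6-week-old wild-type C57BL/6J mice, females and males, received pullulan-collagen hydrogels seeded with control DCs, with Ndrg2-KO DCs or with no cells (blank hydrogel). The seeded gels carried 500000 bone marrow-derived DCs each. The control DCs are called untreated in the labels, and the methods give them nucleofection with non-targeting guides, so the 2 sources differ. Wound tissue was taken on day 10 from 5 mice per group and gave 1 library per group. How the mice were combined is not given in the sources used here, so the spread between mice cannot be seen, and condition and library cannot be told apart. The edit was made in the seeded DCs, and the libraries hold cells of digested wound tissue. The design text of the series instead names sorted GFP+ cells of joined (parabiotic) mice, so the sources differ on this too. Values are listed below in the order control DC, Ndrg2-KO DC and blank hydrogel wounds.

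Neutrophils are short-lived granulocytes that enter wounds early, kill microbes, and also release chemokines and cytokines that call in further leukocytes. CCL3 (macrophage inflammatory protein-1 alpha) and its close relative CCL4 are CC chemokines made by activated myeloid cells and lymphocytes. CCL3 binds the receptor CCR1 on neutrophils and monocytes. In myeloid cells its gene is switched on by microbial products, TNF and IL-1, together with other targets of the transcription factor NF-kB.

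The kept cells numbered 1948, 5681 and 3403 and held 29675507, 49240341 and 34905741 UMIs. Neutrophils made up 21.7%, 46.7% and 41.4% of them. The pairs of libraries shared 2 to 3 kept barcodes, none of them (0) of a Ccl3-rich cell. Ccl3-rich cells were small libraries, with a median of 3473, 3292 and 3676 UMIs and 782, 747 and 893 genes per cell, against 3411, 2637 and 3208 UMIs in Ccl3-0 cells. S100a8 and S100a9 held a median of 9.90%, 9.32% and 9.24% of the UMIs of a Ccl3-rich cell, far over the 1% that the choice required. Intervals below are exact 95% intervals that cover counting error only, not the spread between mice or libraries.

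Ccl3 was a common transcript of wound neutrophils in every library. At least 3 Ccl3 UMIs were found in 275 of 423 neutrophils of control DC wounds (65.0%, 60.3 to 69.6), in 2000 of 2652 of Ndrg2-KO DC wounds (75.4%, 73.7 to 77.0) and in 989 of 1409 of blank hydrogel wounds (70.2%, 67.7 to 72.6). When each cell was thinned to 1000 UMIs, the shares with at least 3 Ccl3 UMIs were 42.2%, 56.1% and 47.9%, in the same order. The intervals cover the counting of cells only, and with 1 library per condition no difference between conditions was tested. The median Ccl3-rich cell held 15, 22 and 19 Ccl3 UMIs, with middle ranges of 7 to 37, 9 to 52 and 8 to 42, and the highest cell held 223, 379 and 317.

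Free RNA in droplets gives UMIs to cells that do not express a gene, so the same count was taken in fibroblast-like and T and NK-like cells, named by at least 3 of their markers. These cells also lay outside the neutrophil gate, with S100a8 and S100a9 under 1% of UMIs and fewer than 3 macrophage markers. Cells with more neutrophil or macrophage RNA were thus left out of the background, which may lower it. At 1000 UMIs per cell, Ccl3 was detected in 93.5%, 94.6% and 93.2% of Ccl3-rich cells, a share that the choice of the cells largely sets. In neutrophils with 1 or 2 Ccl3 UMIs it was detected in 40.7%, 48.6% and 42.3%. In fibroblast-like cells it was 0.716%, 6.60% and 5.40%, and in T and NK-like cells 1.46%, 3.56% and 2.63%. Without thinning, at median depths of 26379, 22913 and 22431 UMIs, a Ccl3 UMI was seen in 6.62%, 26.7% and 25.5% of fibroblast-like cells. In T and NK-like cells, at medians of 6868, 5070 and 6630 UMIs, the unthinned shares were 5.11%, 16.4% and 9.65%. These shares are given as the background of the count.

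**Figure D1:**
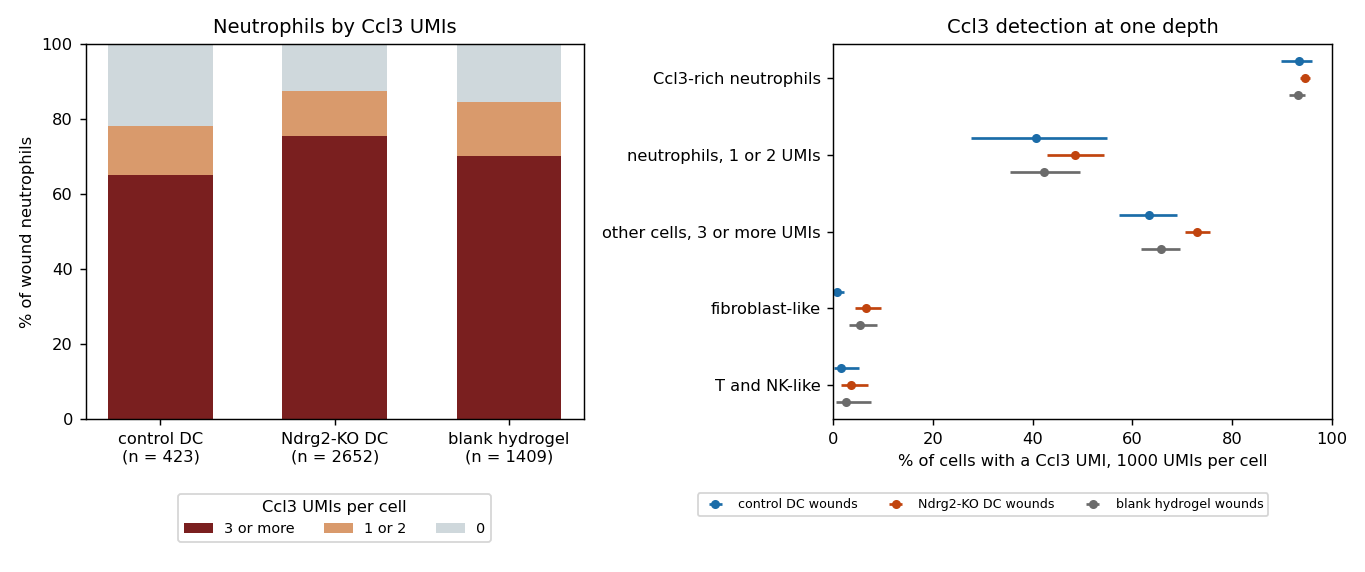
Left, the percent of wound neutrophils with 3 or more, 1 or 2, and 0 Ccl3 UMIs in each library; the class with 3 or more is 65.0%, 75.4% and 70.2%. Right, the percent of cells with a Ccl3 UMI after thinning to 1000 UMIs per cell, as points with exact 95% binomial intervals, in 5 classes of wound cells; fibroblast-like and T and NK-like cells lie between 0.716% and 6.60%.

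The label of these cells rests on Ccl3, Il23a, Il1a, Tnf and Ccrl2, and the other 4 genes were followed one by one. The promoters of Ccl3, Il1a, Tnf and Ccrl2 are shown because their transcripts were high in the same cells. They are the 130 bases before the start of the gene in RefSeq (GRCm38.p6), read 5′ to 3′ on the gene's strand, in lower case with matches in capitals. Letter patterns, 4 in all, were searched on both strands of 300-base promoters, from 250 bases before to 50 after each start, for 13 genes, of which 10 had an entry and Il23a, Ccl4 and Gas7 had none. GGANTTNCC, an NF-kB (kappa-B) type pattern, occurs in 3.945% of 32851 promoters of the table. TGANTCA, the AP-1 type pattern, occurs in 7.808%, TGACGTCA, the CRE type pattern, in 1.79%, and TATAAA in 13.62%.
Ccl3 (chr11:83649379-83649508, - strand): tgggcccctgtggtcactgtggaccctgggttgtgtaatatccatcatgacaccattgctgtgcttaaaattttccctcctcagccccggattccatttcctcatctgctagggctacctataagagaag
Il1a (chr2:129309973-129310102, - strand): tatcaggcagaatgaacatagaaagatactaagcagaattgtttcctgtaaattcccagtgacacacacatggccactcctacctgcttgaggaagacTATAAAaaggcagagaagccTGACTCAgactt
Tnf (chr17:35202008-35202137, - strand): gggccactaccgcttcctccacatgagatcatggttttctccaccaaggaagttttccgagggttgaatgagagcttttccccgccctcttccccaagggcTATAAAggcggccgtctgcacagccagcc
Ccrl2 (chr9:111057519-111057648, - strand): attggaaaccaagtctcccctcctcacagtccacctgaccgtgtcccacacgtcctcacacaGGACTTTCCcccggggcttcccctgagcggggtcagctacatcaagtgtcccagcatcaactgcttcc
Il1a held TATAAA, first base at -32, and TGACTCA at -12. Tnf held TATAAA at -29. Of the 3 RefSeq starts of Ccrl2, 1 held GGACTTTCC at -68, and the Ccl3 window held none of the 4 patterns. The matches did not overlap one another. They are letter matches only.

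All 4 other markers were high together with Ccl3 in every library. Il1a, the gene of the alarm cytokine IL-1 alpha (chr2:129299610-129309972 in GRCm38, minus strand), measured 741, 1359 and 534 CPM (UMIs scaled to a total of 1000000) in Ccl3-rich cells against 123, 164 and 74.5 in Ccl3-0 cells. The log2 ratios were 2.60 (2.15 to 3.08), 3.05 (2.83 to 3.28) and 2.84 (2.46 to 3.25), and every interval lay above a 2-fold difference. Tnf, the gene of tumor necrosis factor (chr17:35199381-35202007), measured 1316, 2103 and 1454 CPM against 204, 239 and 392, with log2 ratios of 2.69, 3.14 and 1.89. Ccrl2, which encodes a chemerin-binding receptor that does not signal through G proteins (chr9:111054486-111057519), measured 775, 958 and 1020 CPM against 248, 246 and 371, with log2 ratios of 1.64, 1.96 and 1.46. The lowest Ccl3-rich level of each of these genes lay above the highest Ccl3-0 level. Il23a, the gene of the IL-23-specific subunit p19 (chr10:128296139-128298752), was sparser, at 200, 261 and 137 CPM against 29.2, 38.5 and 58.5, and rested on 10, 39 and 44 UMIs in Ccl3-0 cells. Over all cells of both classes, the log2 ratios of Il23a were 2.78 (1.87 to 3.86), 2.76 (2.30 to 3.25) and 1.23 (0.78 to 1.70), lowest in the blank hydrogel wounds.

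The same pattern held cell by cell at equal depth. After thinning to 1000 UMIs, Tnf was detected in 36.7%, 47.0% and 45.8% of Ccl3-rich cells and in 15.1%, 14.4% and 21.5% of Ccl3-0 cells. Ccrl2 was detected in 41.1%, 43.6% and 45.7% against 16.1%, 15.6% and 23.4%. Il1a was found in 24.4%, 41.4% and 24.2% against 6.45%, 9.17% and 3.27%. Il23a was found in 9.09%, 12.4% and 8.24% against 1.08%, 2.45% and 2.80%, and fibroblast-like cells reached 0%, 1.78% and 1.44%, with an upper bound of 0.877% where none was seen. As the background of the other markers, fibroblast-like cells held a UMI of Tnf in 0.477%, 5.58% and 5.40%, of Ccrl2 in 1.19%, 2.28% and 4.68% and of Il1a in 0%, 3.30% and 1.80%. T and NK-like cells, of which T cells can themselves make Tnf, were at 2.22% or less for each of these genes. At least 2 of the 4 markers were found in 33.1%, 43.7% and 35.5% of Ccl3-rich cells and in 8.60%, 7.34% and 8.41% of Ccl3-0 cells, and in 0.239%, 2.79% and 3.24% of fibroblast-like cells. All 4 were found in 4.36%, 6.81% and 3.87% of Ccl3-rich cells, and none of the 4 in 38.5%, 28.9% and 30.2%. The markers therefore named a tendency of the group, not a state that every cell showed at this depth. The joint detection was not limited to neutrophils. Wound cells outside the neutrophil gate with at least 3 Ccl3 UMIs held at least 2 of the 4 markers in 13.8%, 43.1% and 25.6% and all 4 in 0.364%, 6.90% and 1.59% of cells, and in the Ndrg2-KO library these shares were close to those of the Ccl3-rich neutrophils.

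Across all genes, 3408 had at least 20 UMIs in the Ccl3-rich or the Ccl3-0 cells of every library. Of these, 80 (2.35%) were at least 2-fold higher in Ccl3-rich cells in all 3 libraries and 11 (0.323%) at least 2-fold lower. Below, "rose" and "fell" are used of these genes and, where restricted cells are named, of genes that met the same rule within those cells. The Ccl3-rich cells held 1184298, 10008648 and 4784978 UMIs and the Ccl3-0 cells 342569, 1012705 and 751834, so that a gene could pass the minimum through the Ccl3-rich cells alone, and a gene low in Ccl3-rich cells could pass less easily. The counts of 80 and 11 are therefore not set against each other. With the minimum put on the mean level of both arms instead, scaled to the smaller arm, 1492 genes passed, 31 were 2-fold higher, all of them among the 80, and 6 were lower. This setting was chosen after the data were seen. A further measure, used for whole lists, is the sign alone, since 1117 genes (32.8%) had a log2 ratio above 0 in all 3 libraries and 823 (24.1%) below 0. The median log2 ratio of all genes was 0.21, 0.07 and -9.1e-05.

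Some cells of both classes carried RNA typical of other cell types. Macrophage markers summed to 2612, 3272 and 1597 CPM in Ccl3-rich cells against 333, 1680 and 1462 in Ccl3-0 cells, and no marker of the 12 was at 0 in Ccl3-rich cells. At least 3 of them were seen in 11.6%, 15.2% and 21.7% of Ccl3-rich cells, against 2.15%, 10.7% and 12.5% of Ccl3-0 cells. The Ccl3-rich cells were split by depth into 4 classes of nearly equal size, and in the deepest class the macrophage sum was 5137, 5531 and 2631 CPM, against 367 to 741 CPM in the other classes. Fibroblast markers summed to 1865, 1941 and 551 CPM against 473, 401 and 382. Dendritic cell markers summed to 1134, 2176 and 1336 CPM against 108, 392 and 1468. Monocyte markers summed to 307, 511 and 296 CPM against 64.2, 212 and 295, and endothelial markers to at most 46.6 CPM. T and NK cell markers (at most 30.1 CPM), mast cell and basophil markers (at most 3.38 CPM) and keratinocyte markers (at most 7.73 CPM) were near 0, and Ncr1, Mcpt8, Prss34, Ms4a2 and Krt15 were at 0 UMIs in the Ccl3-rich cells of 2 or 3 libraries. At least 3 markers of any of 9 other types were seen in 24.4%, 28.6% and 35.5% of Ccl3-rich cells. These cells held 36.4%, 50.7% and 50.3% of the UMIs of the class. In Ccl3-0 cells the shares were 18.3%, 22.4% and 22.2% of cells and 21.9%, 31.7% and 28.3% of UMIs. Each list was therefore also measured without such cells of both classes and only between the quartiles of depth, which left 104, 713 and 318 Ccl3-rich and 36, 126 and 93 Ccl3-0 cells. In these restricted cells 1464 genes passed the minimum, 39 (2.66%) rose and 10 (0.683%) fell, of which 24 and 4 were also among the 80 and the 11. The restriction was chosen after the data were seen.

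Among 14 CC chemokine genes, 7 passed the minimum. Apart from Ccl3, whose difference the choice fixed, Ccl2 and Ccl4 rose, and none (0) fell, beside 2.35% and 0.323% of all genes. Ccl4 (chr11:83662584-83664683), next to Ccl3 on the chromosome, measured 15021, 13613 and 11418 CPM in Ccl3-rich cells against 3961, 3536 and 2378 in Ccl3-0 cells. Its log2 ratios were 1.92, 1.94 and 2.26, and 2.58, 2.12 and 2.38 in the restricted cells. Ccl4 was also found in cells without Ccl3, since 51.6%, 49.5% and 44.4% of Ccl3-0 cells had a Ccl4 UMI at 1000 UMIs per cell, against 86.2%, 84.6% and 83.1% of Ccl3-rich cells. As the background of Ccl4 at 1000 UMIs per cell, its share was 0.716%, 6.35% and 6.83% in fibroblast-like and 3.65%, 4.0% and 1.75% in T and NK-like cells. Ccl2, the main monocyte attractant, measured 187, 414 and 381 CPM against 35.0, 118 and 73.2. Its log2 ratio in the restricted control library was 0.93, on 3 UMIs in Ccl3-0 cells. Ccl6, another CC chemokine of myeloid cells, was at 1452, 1124 and 672 CPM against 1562, 1176 and 797.

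Of 6 CXC chemokine genes measured, all 6 were higher in every library, beside 32.8% of all genes. Cxcl1 and Cxcl2, ligands of the neutrophil receptor CXCR2, rose, beside 2.35% of all genes. Cxcl2 measured 37932, 51531 and 37858 CPM against 16265, 23624 and 17038, with log2 ratios of 1.22, 1.13 and 1.15. Cxcl1 measured 598, 778 and 362 CPM against 58.4, 201 and 132, with log2 ratios of 3.36, 1.95 and 1.46. Both rose in the restricted cells too, by 1.51, 1.25 and 1.42 for Cxcl2 and 2.24, 1.87 and 1.86 for Cxcl1. Cxcl3, another CXCR2 ligand, had log2 ratios of 1.09, 1.03 and 0.77.

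Of 16 measured cytokine genes 7 rose, among them the markers Il1a, Tnf and Il23a described above. With those 3 set aside, 4 of 13 rose, namely Il1rn, Csf1, Csf3 and Hbegf, beside 2.35% of all genes. Il1rn, which encodes the antagonist of the IL-1 receptor, measured 2683, 2822 and 2534 CPM against 782, 1207 and 1180, with log2 ratios of 1.78, 1.23 and 1.10. Csf3, the gene of G-CSF, the growth factor that drives neutrophil production, measured 201, 234 and 133 CPM against 17.5, 67.1 and 39.9, on 6, 68 and 30 UMIs in Ccl3-0 cells. Hbegf rested on 2, 26 and 2 UMIs in Ccl3-0 cells and was not called with the minimum on the mean level of both arms. Csf1, the gene of the macrophage growth factor, measured 388, 412 and 706 CPM against 149, 171 and 310. Il1b, the other IL-1 gene, hardly differed. Its level was 7353, 8582 and 6762 CPM in Ccl3-rich cells and 5564, 8295 and 6670 in Ccl3-0 cells, with log2 ratios of 0.40, 0.05 and 0.02. At 1000 UMIs per cell 86.9%, 93.8% and 86.2% of Ccl3-rich and 81.7%, 91.1% and 84.1% of Ccl3-0 cells held an Il1b UMI. Osm, the gene of oncostatin M, had log2 ratios of 0.41, 0.39 and 0.51. Of the measured genes, 3 of 7 cytokine genes without those markers and 2 of 4 CXC chemokine genes rose in the restricted cells, and so did 2 of 4 CC chemokine genes, which were Ccl3 itself and Ccl4. Of all genes measured in the restricted cells, 2.66% rose.

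NF-kB subunits and feedback genes were higher in all 3 libraries for 20 of 22 measured genes, and 4 rose, beside 32.8% and 2.35% of all genes. Icam1, the endothelial and leukocyte adhesion molecule, measured 361, 404 and 561 CPM against 81.7, 130 and 160, with log2 ratios of 2.14, 1.63 and 1.81. Tnfaip3, which encodes the inhibitory ubiquitin-editing enzyme A20, measured 653, 789 and 594 CPM against 196, 264 and 267, with log2 ratios of 1.74, 1.58 and 1.15. Sod2, the mitochondrial superoxide dismutase, had log2 ratios of 1.03, 1.56 and 1.68, and Ikbke 1.13, 1.12 and 1.77. Nfkbia, which encodes the inhibitor IkB-alpha, stood just short of the call, at 1.01, 1.15 and 0.82. Of 21 genes measured in the restricted cells, 17 were higher in every library and 6 rose, namely Traf1, Nfkbib, Tnfaip3, Gadd45b, Icam1 and Nfkbia. Of all 1464 genes measured there, 353 were higher in every library and 39 (2.66%) rose. Sod2 and Ikbke were not among the 6.

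Further lists are read against the 2.35% of all genes that rose, and a count of 0 or 1 in lists of this size is close to it. Of 28 immediate early genes only Atf3 rose, at 360, 488 and 456 CPM against 111, 221 and 227, while Fos had log2 ratios of 0.65, -0.32 and -0.58, in opposite directions across libraries. Of 15 tissue neutrophil genes, Cd274 (PD-L1), Olr1 (an oxidized lipid receptor) and Hcar2 (a receptor of hydroxybutyrate and niacin) rose. Cd274 measured 190, 483 and 307 CPM against 29.2, 189 and 134. Hcar2 measured 1549, 1758 and 1704 CPM against 511, 835 and 758. Of 17 survival and death genes, the BCL2 relative Bcl2a1b rose, with log2 ratios of 1.11, 1.27 and 1.11. Bcl2a1b has near-identical copies among which counting may split reads. Of 14 antioxidant and metal genes, Sqstm1 rose. These calls changed in part in the restricted cells, where 2 of 25 immediate early genes (Atf3 and Dusp2), 2 of 14 tissue neutrophil genes (Hcar2 and Olr1, not Cd274), 1 of 14 survival and death genes (Bcl2a1a, not Bcl2a1b) and none (0) of 10 antioxidant and metal genes rose, and Osgin1 of the last list fell. Of 8 heat shock genes 2 rose, and none of 5 did in the restricted cells. None (0) of 15 interferon-stimulated, 9 granule, 24 glycolysis and hypoxia, 18 pattern receptor and inflammasome, and 10 oxidase and eicosanoid genes rose or fell. Of 21 cytokine and chemokine receptors the marker Ccrl2 alone rose. Without it and the gate genes Csf3r, Cxcr2 and Il1r2, none (0) of 17 rose, and 9 were lower in every library.

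**Figure D2:**
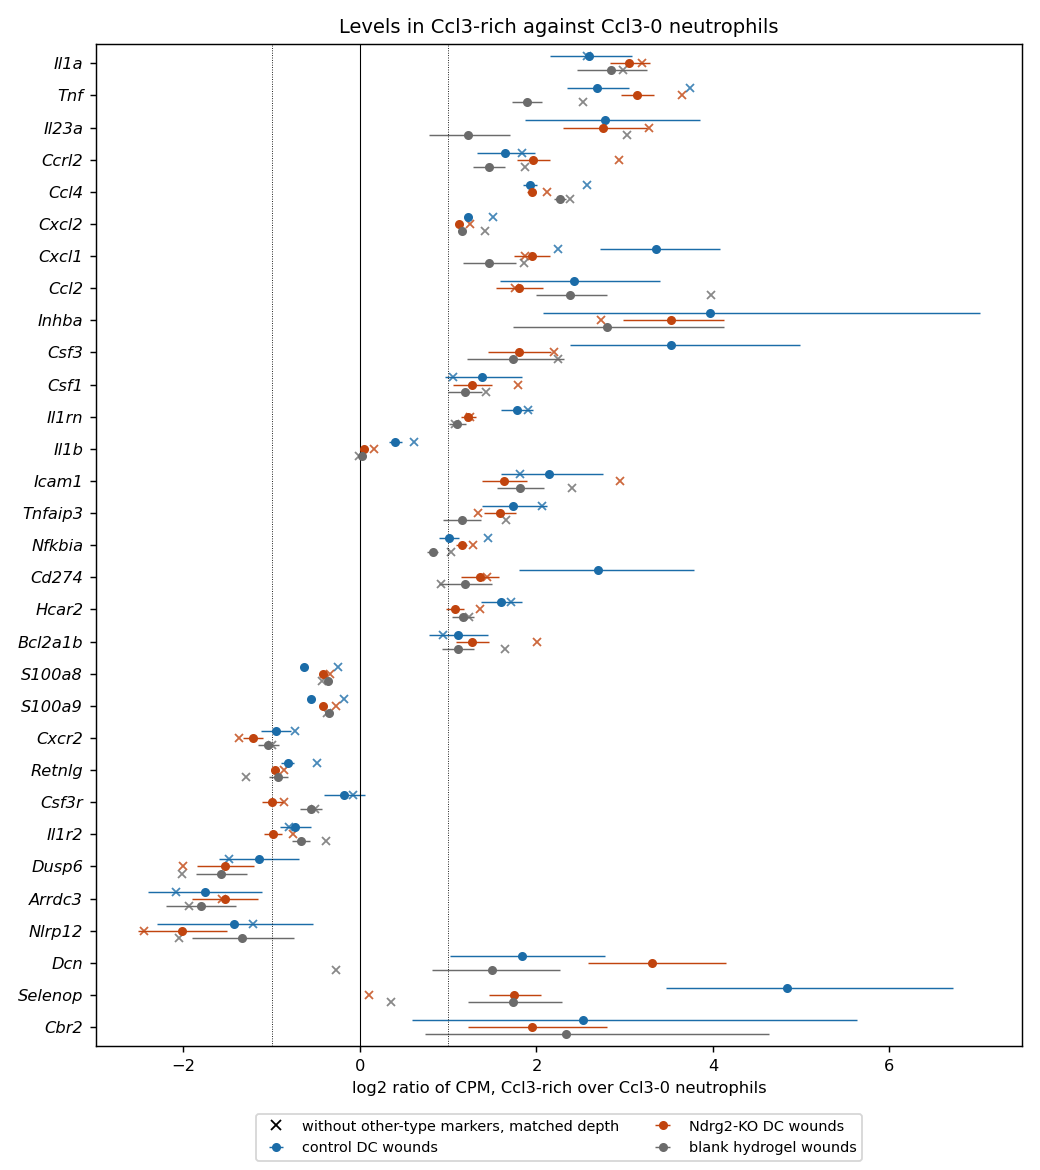
Log2 ratio of CPM in Ccl3-rich over Ccl3-0 neutrophils for 31 genes (rows) in each library; points are all cells with 95% counting intervals, crosses are the cells without markers of other types and between the depth quartiles, drawn only where both arms had more than 3 UMIs. Dotted lines mark 2-fold; Il1a, Tnf, Ccrl2 and Ccl4 lie to the right of the upper line in every library, Il1b lies at 0.40, 0.05 and 0.02, and the points of Dcn and Selenop are far from their crosses.

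The genes that define the neutrophil gate were lower in Ccl3-rich cells. Both classes were chosen on these 9 genes, through a count of genes with a UMI, and the classes differed in depth (medians of 3292 UMIs in Ccl3-rich and 2637 in Ccl3-0 cells of Ndrg2-KO DC wounds). The part of depth was not tested, and the values are a description only. All 9 were lower in all 3 libraries, although none (0) passed 2-fold in each. Cxcr2, the receptor for Cxcl1 and Cxcl2, measured 633, 337 and 472 CPM in Ccl3-rich cells against 1226, 783 and 971, with log2 ratios of -0.95, -1.22 and -1.04. It was detected in 40.7%, 24.7% and 32.0% of Ccl3-rich cells at 1000 UMIs and in 48.4%, 47.4% and 52.8% of Ccl3-0 cells. S100a8, a subunit of calprotectin, measured 51334, 41387 and 44429 CPM against 79409, 55267 and 57184. Retnlg had log2 ratios of -0.82, -0.96 and -0.93, Mmp9 -1.14, -1.05 and -0.48, and Il1r2, a decoy receptor for IL-1, -0.73, -0.99 and -0.67. The list of circulating neutrophil and migration genes shares Csf3r, Cxcr2 and Retnlg with the gate, and without them 12 of 18 genes were lower in every library and 2 higher, beside 24.1% and 32.8% of all genes. In the restricted cells 8 of 9 gate genes and 9 of 17 of these others were lower in every library, and 4 of the 17 were higher. Of all 1464 genes measured there, 480 were lower and 353 higher in every library.

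The 11 genes that fell were sparse. Arrdc3, an arrestin family gene, measured 36.3, 27.0 and 32.4 CPM against 123, 78.0 and 113, with log2 ratios of -1.76, -1.53 and -1.80. Nlrp12, which encodes a NOD-like receptor that dampens inflammation, measured 22.8, 11.7 and 19.4 CPM against 61.3, 47.4 and 49.2. Dusp6, the phosphatase of ERK kinases, measured 91.2, 35.9 and 66.2 CPM against 201, 104 and 197, with log2 ratios of -1.14, -1.53 and -1.57. All 3 had log2 ratios under -1 in the restricted cells too, with 7 UMIs of Nlrp12 in the control Ccl3-0 arm. A530064D06Rik, Gm26740, Tirap, Pram1, Agap2, Tinf2, Mpzl3 and R3hdm4 made up the rest. Gm26740 is annotated as an antisense gene, and as the use of strand in counting is not given in the sources used here, its reads and those of its partner may not be told apart.

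The 10 largest rises by the smallest of the 3 ratios were Nid1, Inhba, Il1a, Fbn1, Ifi205, Cbr2, Ccl4, Tnf, Gas7 and Saa3. Nid1, Inhba, Fbn1, Ifi205, Cbr2 and Gas7 passed the minimum through the Ccl3-rich cells in control DC and blank hydrogel wounds and did not pass with the minimum on the mean of both arms, where Il1a, Ccl4, Tnf and Saa3 remained. Il1a, Ccl4, Tnf and Saa3 had log2 ratios over 1 in every library in the restricted cells as well. Inhba rested there on 1, 12 and 2 UMIs in Ccl3-0 cells, and nothing is read from its ratio. Inhba, the gene of the activin A subunit, measured 91.2, 306 and 64.8 CPM against 5.84, 26.7 and 9.31, on 2, 27 and 7 UMIs in Ccl3-0 cells. Saa3, an acute-phase serum amyloid gene, measured 429, 532 and 470 CPM against 61.3, 46.4 and 133. Nid1, Fbn1, Cbr2, Gas7 and Ifi205 rested on 1 to 15 UMIs in Ccl3-0 cells of each library. Nid1 and Fbn1 encode matrix proteins and Cbr2 is a marker of tissue macrophages. These 5 genes did not stay 2-fold higher in the restricted cells, where most Ccl3-0 arms held 3 UMIs or fewer. Dcn, a fibroblast proteoglycan, measured 135, 146 and 67.5 CPM against 37.9, 14.8 and 23.9 and had 7 or fewer UMIs in each restricted Ccl3-0 arm. Of the fibroblast markers 2 of 6 (Dcn and Lum) and none (0) of 10 macrophage, 4 monocyte, 4 dendritic cell, 1 endothelial and 4 erythroid markers rose. No marker of the T and NK, mast cell and keratinocyte lists reached the minimum (0 genes tested in each). The part of other cell types in the rises was not tested beyond this restriction.

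Levels were also taken by the Ccl3 count, by which the cells were chosen, in classes of 0, 1 to 2, 3 to 9, 10 to 29, and 30 or more Ccl3 UMIs per cell. Tnf was highest in the top class, with 204, 449, 470, 437 and 2812 CPM over the 5 classes in control DC wounds. In Ndrg2-KO DC wounds the Tnf levels were 239, 569, 518, 1263 and 3104 CPM, and in blank hydrogel wounds 392, 369, 514, 994 and 2257 CPM. Il1a in Ndrg2-KO DC wounds measured 164, 352, 286, 797 and 2034 CPM. Below the top class neither gene went up at every step in all 3 libraries. As a difference in CPM, the step from 10 to 29 up to 30 or more was the largest for both genes in every library. Cxcr2 declined over the 5 classes, from 1226 to 474 CPM in control DC, 783 to 269 in Ndrg2-KO DC and 971 to 404 in blank hydrogel wounds. At the edge of the choice, the 18, 95 and 62 cells with exactly 3 Ccl3 UMIs had 431, 373 and 452 CPM of Tnf, and the 21, 137 and 91 cells with exactly 2 had 743, 653 and 466 CPM. The cells just inside the limit were thus not higher in Tnf than those just outside it. The classes were not matched on depth.

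**Figure D3:**
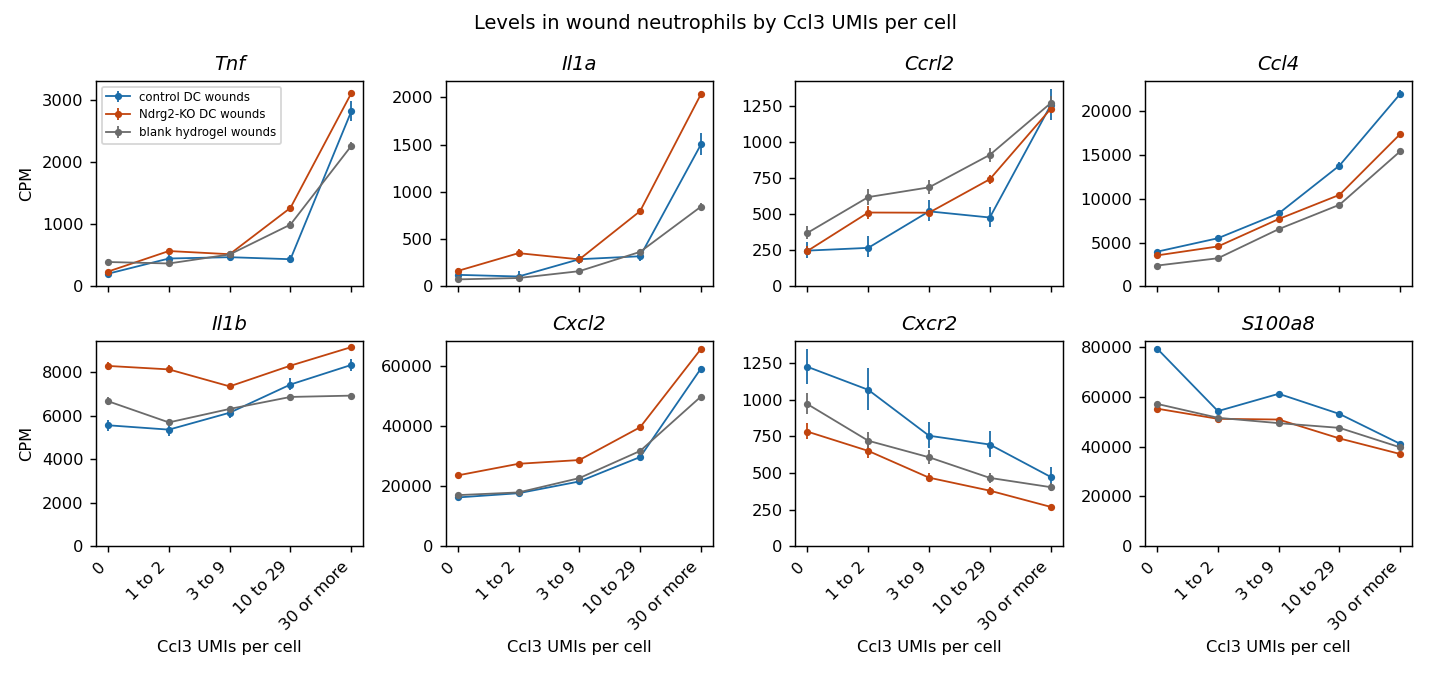
CPM (linear axes from 0) of 8 genes in wound neutrophils grouped by Ccl3 UMIs per cell, 1 line per library with 95% Poisson intervals. Tnf and Il1a are highest at 30 or more Ccl3 UMIs, where Tnf reaches 2812, 3104 and 2257 CPM, Il1b spans 5363 to 9159 CPM over all classes and libraries, and Cxcr2 and S100a8 are lowest at 30 or more.

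Ccl3-rich neutrophils held a large part of the wound's transcripts of these genes relative to their part of all UMIs. They held 3.99%, 20.3% and 13.7% of all UMIs of kept cells. They held 58.1%, 66.4% and 71.2% of the Ccl3 UMIs, a share the choice sets in part, and 68.1%, 74.2% and 74.5% of the Ccl4 UMIs. For Il1a the shares were 57.7%, 55.0% and 57.4%. Il23a, at 83.2%, 58.0% and 62.3%, was measured on 285 UMIs in the control library. Tnf was more widely spread, with 26.4%, 43.9% and 44.7% in Ccl3-rich neutrophils. Cytokine genes better known from stromal cells were mostly outside, with 0.748%, 6.94% and 2.82% of Cxcl1, 0.390%, 1.85% and 0.661% of Il6 and 1.95%, 16.4% and 8.37% of Inhba.

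**Figure D4:**
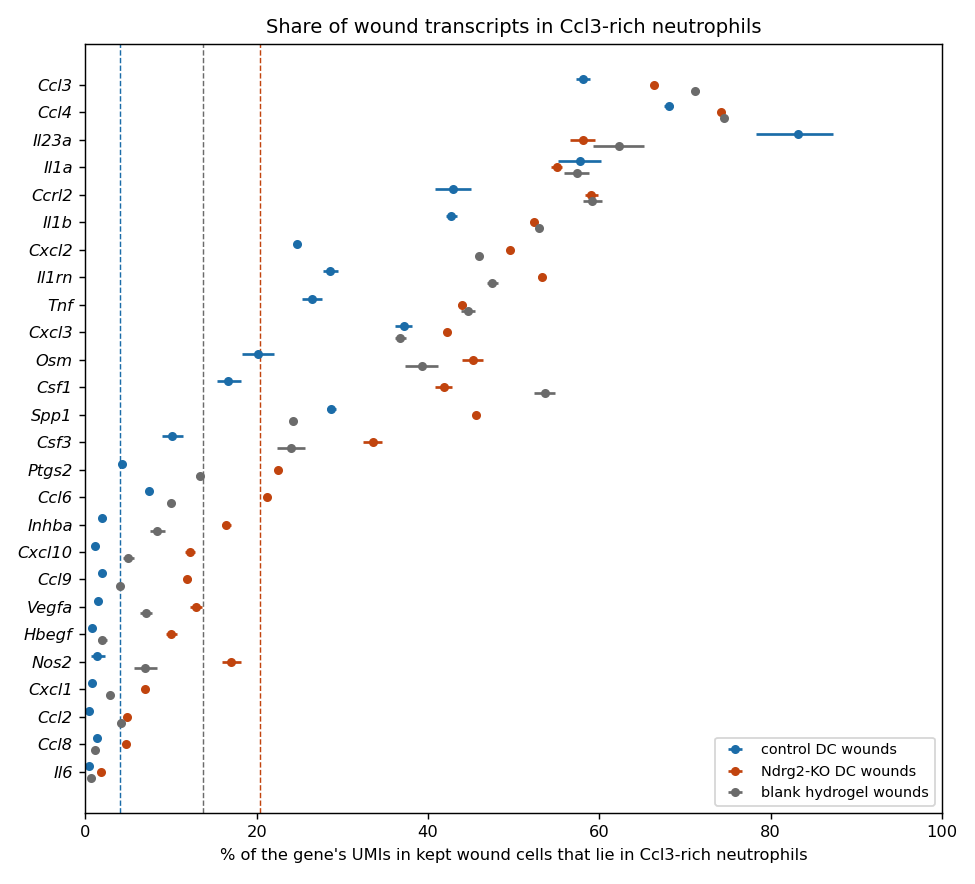
Percent of the UMIs of each gene in all kept wound cells that lay in Ccl3-rich neutrophils, by library; dashed lines mark their percent of all UMIs (3.99%, 20.3% and 13.7%). Ccl4, Ccl3 and Il1a reach at least 55.0% in each library, while Cxcl1, Il6 and Ccl2 reach at most 6.94%.

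A further 278, 1276 and 574 wound cells outside the neutrophil gate had at least 3 Ccl3 UMIs, at median depths of 14452, 9088 and 10192 UMIs. These cells share the Ccl3 threshold in UMIs but were deeper, so it is not the same level of Ccl3. In control DC wounds Ccl3 measured 6496 CPM in the Ccl3-rich neutrophils and 1218 in the other cells, and in Ndrg2-KO DC wounds 7686 and 2819. The other genes are set side by side as a description only. Ccl4 measured 15021, 13613 and 11418 CPM in the neutrophils and 1219, 2794 and 2027 in the other cells, with log2 ratios of 3.62, 2.28 and 2.49. Il1b measured 7353, 8582 and 6762 CPM against 472, 3542 and 1476. Tnf was closer, at 1316, 2103 and 1454 CPM against 687, 1704 and 891. Cxcl1 was lower in the neutrophils, at 598, 778 and 362 CPM against 1348, 2331 and 1105. Ccr1, which encodes a receptor of CCL3, measured 1238, 1020 and 1028 CPM in Ccl3-rich neutrophils against 237, 341 and 277 in the other Ccl3 cells, and Ccl3-0 neutrophils held more of it, 1346, 1406 and 1205 CPM.

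The conditions were compared within Ccl3-rich neutrophils, 1 library against 1 library. Between Ndrg2-KO DC and control DC wounds 6537 genes had at least 50 UMIs in 1 of the libraries, of which 1008 (15.4%) were at least 2-fold higher and 94 (1.44%) at least 2-fold lower in the Ndrg2-KO library. The 2 sums differ in size, 10008648 UMIs against 1184298, and a gene could pass through the larger Ndrg2-KO sum alone, so the counts in the 2 directions are not set against each other. With the minimum on the mean level of both libraries, scaled to the smaller, 92 of 1865 genes were higher and 20 lower. Against blank hydrogel wounds, with the minimum in either library, the numbers were 528 (8.06%) and 84 (1.28%) of 6551. With median-ratio scaling 696 were higher and 218 lower against control DC wounds. Both comparisons share the Ndrg2-KO library, and the median log2 ratio of all genes was 0.22 and 0.02. In the restricted cells 151 of 2309 (6.54%) were higher and 74 (3.2%) lower against control DC wounds, and 80 (3.45%) and 88 (3.79%) of 2321 against blank hydrogel wounds.

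Of the cell markers, none (0) of 5 differed 2-fold between Ndrg2-KO and control DC wounds over all Ccl3-rich cells, and 1 of 5, Il1a, was at least 2-fold higher in Ndrg2-KO than in blank hydrogel wounds (log2 ratio 1.35, and 1.21 in the restricted cells). Against control DC wounds Il1a had a log2 ratio of 0.87 (0.78 to 0.97), Tnf 0.68, Il23a 0.38 and Ccrl2 0.31. In the restricted cells Il1a (1.28) and Il23a (1.26) passed 2-fold against control DC wounds. In Ccl3-0 cells the log2 ratio of Il1a was 0.42 against control DC and 1.14 against blank hydrogel wounds.

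Interferon-stimulated genes were mostly higher in the Ndrg2-KO than in the control DC library. Of 24 measured genes, 17 were at least 2-fold higher in the Ndrg2-KO than in the control DC library and none (0) lower, with a median log2 ratio of 1.49, beside 15.4% of all genes higher. Against blank hydrogel wounds 5 of 24 were, beside 8.06% of all genes. Between blank hydrogel and control DC wounds, 7 of 19 were at least 2-fold higher in the wounds with no seeded cells (median log2 ratio 0.84), beside 6.96% of all genes, and 8 of 13 in the restricted cells (median 1.10), beside 5.8%. With the minimum on the mean of both libraries, 10 of 15 were higher in the Ndrg2-KO than in the control DC library and none (0) lower, beside 4.93% of all genes higher. Isg15, a ubiquitin-like antiviral protein gene, measured 155, 418 and 264 CPM in Ccl3-rich cells, with a log2 ratio of 1.43 (1.21 to 1.65) of Ndrg2-KO over control DC. Gbp2, a guanylate-binding protein gene that responds to interferon gamma, measured 182, 499 and 419 CPM. Rsad2 (viperin) measured 48.1, 199 and 94.3 CPM and Ifi47 24.5, 145 and 87.8 CPM. The control DC library was the low one, and blank hydrogel wounds lay between the other two for these 4 genes. Slfn4 was opposite, at 853, 578 and 805 CPM. In the restricted cells 14 of 17 measured genes were at least 2-fold higher in the Ndrg2-KO than in the control DC library, with a median log2 ratio of 1.77, beside 6.54% of all genes, and 2 of 17 against blank hydrogel wounds, beside 3.45%. The same direction was found in Ccl3-0 cells, where Isg15 had 140, 466 and 374 CPM (log2 ratio 1.73) and Gbp2 52.5, 292 and 269 CPM (2.48), so it was not limited to the Ccl3-rich cells. Hemoglobin and the other erythroid genes were also higher, 5 of 5, in Ccl3-rich cells of the Ndrg2-KO library, where Hbb-bs measured 3274, 9452 and 4945 CPM, and in Ccl3-0 cells it was at 7864, 14800 and 4115 CPM. The erythroid markers summed to 5344, 15720 and 8323 CPM in Ccl3-rich and 12155, 25009 and 6906 CPM in Ccl3-0 cells. In the restricted cells 4 of 4 measured erythroid genes were at least 2-fold higher in the Ndrg2-KO than in the control DC library, beside 6.54% of all genes. Their median log2 ratio was 1.39, on 1 to 35 UMIs in the control DC library. The part of erythroid RNA in the other differences was not tested.

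**Figure D5:**
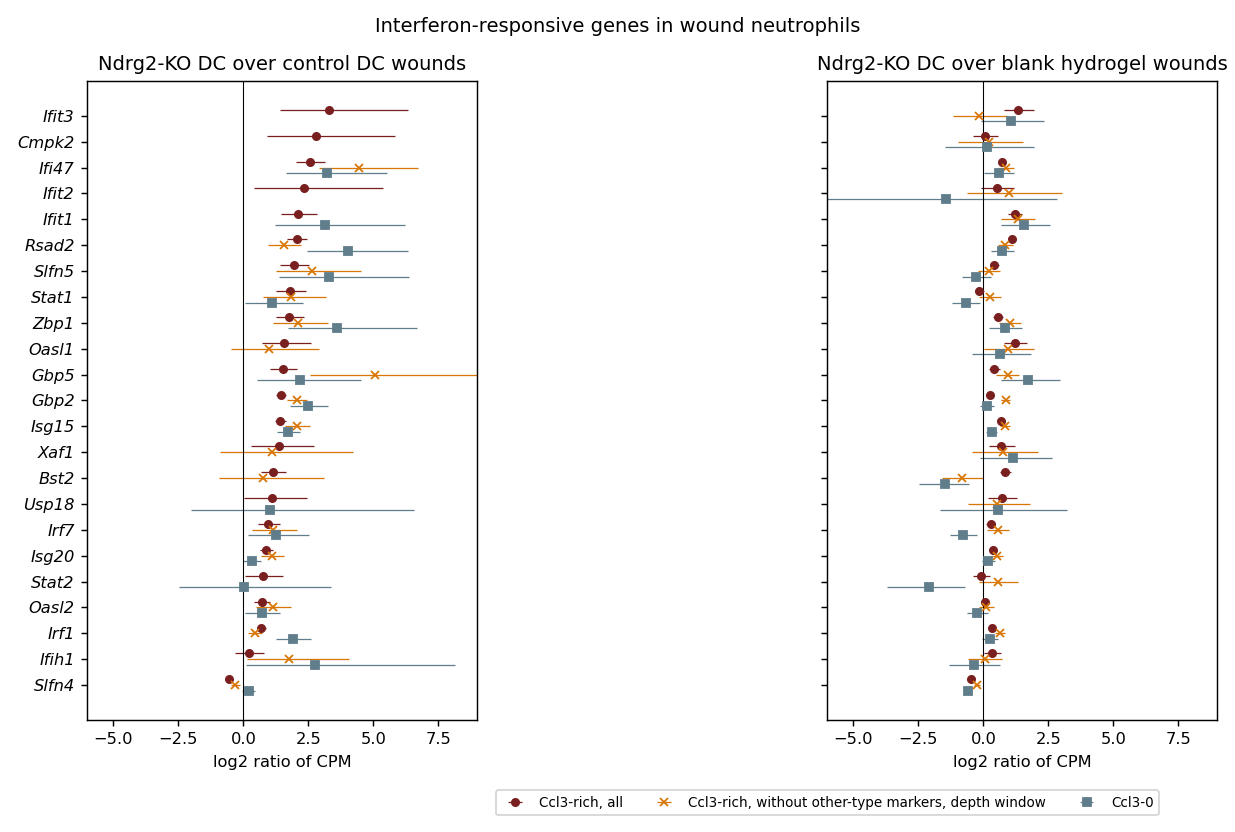
Log2 ratio of CPM between libraries for 23 interferon-responsive genes (rows), Ndrg2-KO over control DC wounds at left and over blank hydrogel wounds at right, with 95% counting intervals, in all Ccl3-rich cells, in those without markers of other types and between the depth quartiles, and in Ccl3-0 cells; ratios with a count of 0 are not drawn. Isg15 lies at 1.43, 2.05 and 1.73 at left, and Slfn4 is below 0 in Ccl3-rich cells in both panels.

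The other lists gave smaller or mixed differences in Ccl3-rich cells between Ndrg2-KO and control DC wounds. Of the 22 genes of circulating neutrophils and migration none (0) passed 2-fold, with a median log2 ratio of -0.53, and Cxcr2 measured 633, 337 and 472 CPM. Of the CC chemokines 6 of 12 and of the CXC chemokines 7 of 11 were at least 2-fold higher in the Ndrg2-KO library, against 15.4% of all genes. Genes could pass that minimum through the larger Ndrg2-KO sum alone. With the minimum on the mean of both libraries, 2 of 7 CC (Ccl2 and Ccl7) and 2 of 5 CXC chemokines (Cxcl10 and Pf4) were higher, beside 4.93% of all genes. In the restricted cells 1 of 7 (Ccl2) and 1 of 5 (Cxcl9) were at least 2-fold higher, beside 6.54% of all genes. Ccl2 measured 48.9, 184 and 694 CPM there, so the Ndrg2-KO library lay above control DC but below blank hydrogel wounds. Of the markers of other cell types, 3 of 12 macrophage (Fcgr1, Trem2 and Ms4a7), 3 of 5 monocyte (Fn1, Ccr2 and Ms4a4c), 3 of 6 dendritic cell (Fscn1, Ccr7 and H2-Ab1) and 1 of 1 T and NK cell genes (Cd3d) were at least 2-fold higher in the Ndrg2-KO than in the control DC library over all Ccl3-rich cells, and none (0) of 7 fibroblast genes and 0 of 1 endothelial genes were. In the restricted cells none (0) of 3 macrophage and 0 of 1 monocyte genes were, while of 4 dendritic cell genes 1 (H2-Ab1) was higher and 1 (H2-Eb1) lower. The part of these cell types in the chemokine values was not tested. Among the 8 genes with the largest ratios, Cxcl9, an interferon gamma target, had 324 against 1 UMIs, Areg 670 against 3, and Cav1 259 against 1. All 3 could pass the minimum through the larger Ndrg2-KO sum alone. Within the restricted cells Mmp12 measured 28.2 CPM in the Ndrg2-KO, 0 in the control DC and 13.6 in the blank hydrogel library, and Cxcl9 29.1, 2.88 and 0 CPM, on 1 UMI in control DC wounds. Areg measured 10.4 CPM in the Ndrg2-KO, 0 in the control DC and 20.9 in the blank hydrogel library there, the lower bound of its log2 ratio to control DC wounds was -0.14, and the interval of its log2 ratio to blank hydrogel wounds was -1.90 to -0.10. Cav1, Mmp13, Arg1, Ncoa7 and Slc7a2 had 0 UMIs in the restricted control DC cells and 2 to 18 in the Ndrg2-KO library, and nothing is read from them. Of the 8 genes with the lowest ratios, Crispld2, a secreted LPS-binding protein gene, had a log2 ratio of -2.20 and of -2.64 in the restricted cells (49 against 48 UMIs, in 713 and 104 cells). Gm12840, Sh2d5 and Pram1 were also lower in both, and Cd209d and Lyve1, genes of tissue macrophages, were at 0 UMIs in the restricted control cells. As both values of each ratio come from 1 library, no difference between conditions was tested.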

How the data were processed

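The authors aligned 10x Chromium 3' reads and deposited filtered UMI counts per gene and cell (Cell Ranger 6.0.0 per the file headers, whose features are those of mm10/GRCm38, while the labels list mm9). All 3 wound libraries were used, the 3 DC libraries were not. Cells were filtered and chosen as stated in the report, UMIs were summed per library and class and scaled to CPM, and genes with at least 20 UMIs in an arm of every library (50 between conditions) were compared. A count of 0 was replaced by 3 UMIs. Exact Poisson, Clopper-Pearson and conditional binomial 95% intervals cover counting error only. With 1 library per condition no test was run. Fibroblast-like and T and NK-like cells needed 3 markers, a place outside the neutrophil gate, under 1% S100a8 and S100a9 UMIs and fewer than 3 macrophage markers. Doublets were kept, and scores of Scrublet (scanpy 1.11.5), whose automatic calls marked 17, 2 and 0 cells, served only as an alternative. Values were computed with SciPy 1.17.1 and pandas 2.3.3, on NumPy 2.4.6 and Python 3.11.15. The steps were checked on simulated data.

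The members and the 27 gene lists (387 genes, 1 not in the files) were chosen with earlier results of these data known. Named genes were the cell markers and gate genes, examples of each list, the 10 largest rises and falls by the smallest of the 3 ratios and, between conditions, the 8 largest in each direction without mitochondrial and ribosomal protein genes. Selenop was added after its values were seen. All columns of the files used were mapped (0 not used).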

Additional observations from a re-analysis of the deposited data

Results flagged for a closer look

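The Ccl3-rich over Ccl3-0 log2 ratio of Hbb-bt, a hemoglobin gene, was -1.31 in control DC wounds and -0.80 in Ndrg2-KO DC wounds but 1.24 in blank hydrogel wounds. It was marked because the libraries moved in opposite directions, and the difference was not tested. Ngp, a gene of neutrophil secondary granules made in the bone marrow, had log2 ratios of -3.01, 1.25 and -0.80, also in opposite directions and not tested. Neither gene was among those that rose or fell in all 3 libraries.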

How the results depend on the processing

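The count of genes at least 2-fold higher in Ccl3-rich cells in all 3 libraries (80) was 41 with at least 50 UMIs per gene, 31 with the minimum on the mean level of both arms, 53 by means over cells, 50 between the depth quartiles, 32 with cells thinned to 1000 UMIs, 53 without the highest 6% of doublet scores, 49 without cells with 3 macrophage markers, and 45 and 39 without cells with 3 markers of any other type, in all cells and between the depth quartiles (the minimum on the mean and the last 2 were chosen after seeing the data). Of the 80 genes, 30 passed the minimum in the last setting and 24 were called there. Without the control DC, the Ndrg2-KO DC or the blank hydrogel wounds library the count was 289, 118 and 277, because fewer libraries had to meet it. The count of genes lower (11) was 3 with at least 50 UMIs, 6 with the minimum on the mean, 18 with median-ratio scaling, 2 when thinned, 5 when members needed 1 Ccl3 UMI and 7 without other-type cells, and 41, 16 and 24 without each library. Between Ndrg2-KO and control DC wounds, 1008 genes higher became 92 with the minimum on the mean, 171 when thinned, and 251 and 151 in the 2 settings without other-type cells, and 94 lower became 211 by means over cells, 218 with median-ratio scaling 52 when thinned and 20 with the minimum on the mean. The shares of Ccl3-rich neutrophils were 78.0%, 87.4% and 84.7% at 1 or more Ccl3 UMIs, 57.7%, 67.8% and 61.9% at 5 or more, and 42.2%, 56.1% and 47.9% when thinned. With Ccl3 at 5 or more per 10000 UMIs the Ndrg2-KO DC and blank hydrogel shares were 80.4% and 74.7%, and without other-type cells 73.5% and 67.1%. In each of these settings where all 3 shares were printed, Ndrg2-KO DC wounds were highest and control DC wounds lowest. The median log2 ratio of Fbn1 turned to -0.0061 between the depth quartiles and to -0.57 without other-type cells between the quartiles. Ifi205, Gas7, Cbr2, Nid1, Fbn1, Cav1, Ncoa7, Lyve1, Arg1, Cd209d, Slc7a2 and Mmp13 gave no value in some settings, where both counts were at or under 3 UMIs or where a count of 0, replaced by 3 UMIs, left the direction undetermined. Other causes of these changes were not tested. No paired analysis was possible because each condition has 1 library. Depth limits Il23a, Inhba and Csf3, with 2 to 68 UMIs in Ccl3-0 cells.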

Other observations

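The deposited features included eGFP and tdTomato, and both had 0 UMIs in the kept cells of all 3 wound libraries. With a floor of 3 UMIs this allows up to 0.101, 0.0609 and 0.0859 CPM in control DC, Ndrg2-KO DC and blank hydrogel wounds, for counting error only. The design text of the series speaks of GFP+ cells from joined mice, while the sample labels and the methods describe wounds under hydrogels, and the sources used here do not settle which applies to the reporter features.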
